A study of Homo sapiens with 8 samples.

Results

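The genes described here are those whose response to CTBP2 differed between MM.1S and NCI-H929, 2 human cell lines grown from multiple myeloma, a plasma cell cancer. They were chosen by a contrast over all 8 RNA-seq libraries, the change from empty vector (EV) to CTBP2 in NCI-H929 minus the same change in MM.1S, computed on log2(FPKM + 1), where FPKM is a fragment count scaled by transcript length and library size. A gene was a member when this difference had an adjusted p under 0.05 and the changes of both NCI-H929 CTBP2 libraries from the EV mean of that line lay on the same side of the changes of both MM.1S CTBP2 libraries from theirs. There were 158 members among 12583 genes tested and 25906 in the table. Because the contrast chose the members, their differences are given as a description and support no test.

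Both lines were transduced by lentivirus with either an empty vector or a CTBP2 overexpression vector, and RNA was taken 72 hours later. Each of the 4 groups had 2 libraries, which the submitters call biological duplicates, with no further word on how they were separated. MM.1S and NCI-H929 are established plasma cell myeloma lines, so each line stands for 1 tumour. MM.1S carries a translocation that drives the transcription factor MAF and, with it, the cyclin gene CCND2, while NCI-H929 carries a translocation that drives FGFR3 and WHSC1. CTBP2 is a corepressor: it does not bind DNA by itself but is brought to genes by zinc finger and other DNA-binding factors, and it carries histone deacetylases and a histone demethylase with it. It is best known for repressing epithelial and developmental genes, and its partner factors vary between cell types.

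The line labels of the second CTBP2 library of each line went against the expression of the line genes. CCND2 was 94.6 and 115 FPKM in the MM.1S EV pair and 46.7 in MM.1S CTBP2 replicate 1. In CTBP2 replicate 2 it was 0.0582 FPKM under the MM.1S label and 60.7 under the NCI-H929 label. FGFR3 went the other way: it was 13.8 and 21.7 FPKM in the NCI-H929 EV pair, 13.6 in NCI-H929 CTBP2 replicate 1, 22.2 in replicate 2 under the MM.1S label and 0.0399 under the NCI-H929 label. Line genes that the assignment did not use were split the same way. MAF was 191 FPKM in replicate 2 under the NCI-H929 label and 30.6 under the MM.1S label, and WHSC1 was 20.8 and 152 FPKM in the same order. Across genes, CTBP2 replicate 2 under the MM.1S label correlated at 0.9616 (Pearson, log2(FPKM + 1)) with NCI-H929 CTBP2 replicate 1 and at 0.8058 with MM.1S CTBP2 replicate 1. The line was therefore set by expression, with CCND2 above 10 FPKM as MM.1S and FGFR3 above 10 FPKM as NCI-H929, and in each list of values here the second CTBP2 value of a line comes from the library whose label names the other line. Values without these 2 libraries come from the 6 whose labels and line genes do not conflict and are called the 6-library values.

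**Figure D1:**
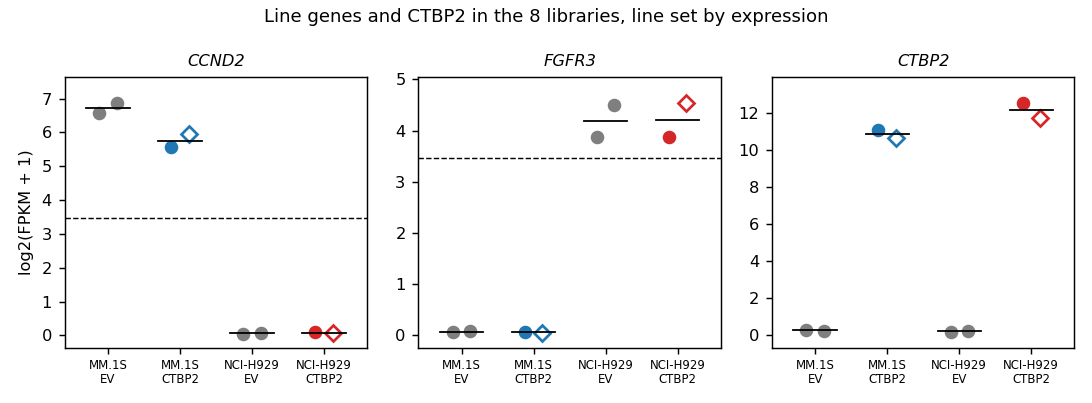
Expression of CCND2, FGFR3 and CTBP2 as log2(FPKM + 1) in the 8 libraries, grouped by vector and by the line that expression gives; circles are libraries whose label names that line, open diamonds the 2 libraries whose label names the other line, bars group means and dashed lines 10 FPKM. The MM.1S diamond has CCND2 at 60.7 FPKM and the NCI-H929 diamond has FGFR3 at 22.2 FPKM, and CTBP2 is at least 1621 FPKM in all 4 CTBP2 libraries.

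CTBP2 itself was near absent with EV in both lines and reached a higher level in NCI-H929 than in MM.1S with the vector. It was 0.213 and 0.201 FPKM with EV and 2145 and 1621 with CTBP2 in MM.1S, and 0.148 and 0.184 FPKM with EV and 5884 and 3427 with CTBP2 in NCI-H929. The 2 NCI-H929 CTBP2 libraries were thus above both MM.1S CTBP2 libraries, though the difference in response, 1.32 ± 0.36 (log2, standard error), was not called (limma adjusted p = 0.13). The part of this unequal level in the differences described here was not tested. CTBP1, the close relative of CTBP2, was not a member: its difference was 0.21 ± 0.20 (log2, standard error, 2 libraries a group; limma adjusted p = 0.7).

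Plasma cell genes were expressed in every library, with SDC1 between 192 and 345 FPKM and XBP1 between 421 and 1043 FPKM. Of 16 markers of other cell types, 12 were under 1 FPKM in every library, and their summed level ran from 7.02 to 79.4 FPKM. The high sums came from CD3E, at 16.7 and 53.1 FPKM in the NCI-H929 CTBP2 libraries beside CD3D at most 0.214 FPKM, and from KRT18 in the NCI-H929 libraries. The FPKM steps of low genes put depth at roughly 16000000 to 21000000 fragments a library. At these depths 49 to 54.7% of low values lay within 0.1 of a whole fragment, against 20% by chance. Each depth was picked partly to raise that share, so depth is an estimate. Genes for microRNA and other small RNA took 5.02 to 21.2% of summed FPKM. In bulk RNA, fewer cells of a type and less RNA per cell cannot be told apart.

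Of the 158 members (1.26% of the genes tested), the NCI-H929 response was the higher in 116 (0.922%) and the lower in 42 (0.334%). The 6-library fit called 44 genes, of which 24 were among the 158, and the labels as they stand called 2, the small RNA genes SNORA68 and MIR142. The number called also moved with each library left out. It was 8 without MM.1S EV replicate 1 and 15 without MM.1S EV replicate 2. It was 6 without NCI-H929 EV replicate 1 and 42 without NCI-H929 EV replicate 2. By label, leaving out MM.1S CTBP2 replicate 1 gave 16, MM.1S CTBP2 replicate 2 gave 130, NCI-H929 CTBP2 replicate 1 gave 418 and NCI-H929 CTBP2 replicate 2 gave 12. In the 6-library fit 154 of the members had a difference of at least 1 in size, against 156 in the 8-library fit. The 6 libraries are among the 8 that chose the members, and the rule on the CTBP2 libraries fixes the sign. Neither size nor sign is thus a separate check.

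The members were classed by the line whose libraries were named apart. A line's response was named higher or lower where both its CTBP2 libraries lay beyond both its EV libraries and the means differed by at least 0.5 (log2). By that measure 82 members were higher with CTBP2 in NCI-H929 only and 15 lower in NCI-H929 only, while 23 were higher in MM.1S only and 12 lower in MM.1S only. In 12 members the lines went in opposite directions, 13 were higher in both lines by unequal amounts, and 1 was lower in both. Over all genes tested, these classes held 1747 (13.9%), 1296 (10.3%), 513 (4.08%), 470 (3.74%), 39 (0.31%), 899 (7.14%) and 952 (7.57%) genes in the same order. The contrast that chose the members is made of the same values, so nothing is read from these shares. A line that was not named apart could still move by less than 0.5. In CASP1, CARD16, F11R and ARHGAP25, classed as NCI-H929 only, both MM.1S CTBP2 libraries lay above both EV libraries, by 0.42 to 0.47. In APOBEC3G and EVL, of the same class, both lay below, by -0.46 and -0.44. The response was larger in size in NCI-H929 for 117 of the 158, but the same share over all genes was not counted, so this is not read as a trait of the members. Over all 12583 genes limma called 2298 higher (18.3%) and 1840 lower (14.6%) with CTBP2 within NCI-H929, and 462 higher (3.67%) and 226 lower (1.8%) within MM.1S.

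**Figure D2:**
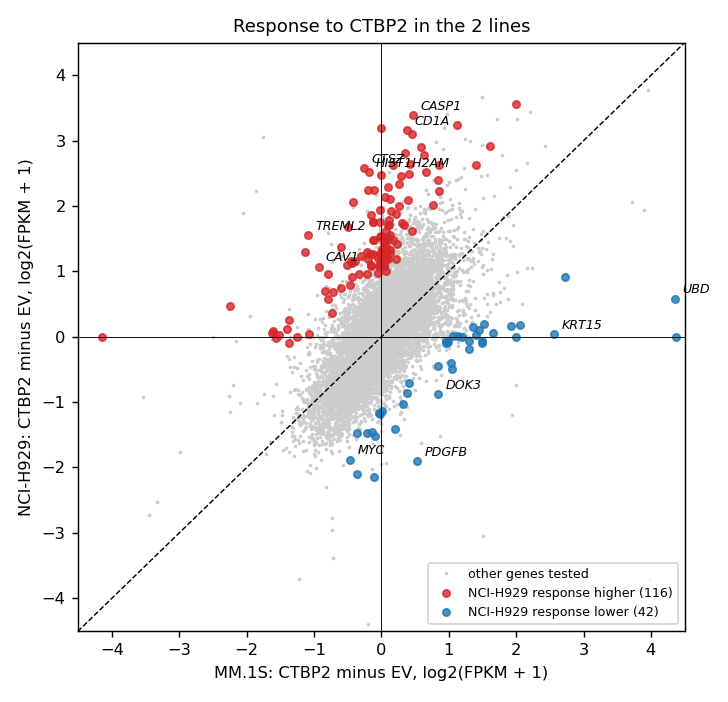
CTBP2 minus EV in MM.1S (x axis) against NCI-H929 (y axis), both on log2(FPKM + 1), for the 12583 genes tested; grey points are other genes, red points the 116 members with the higher NCI-H929 response, blue points the 42 with the lower one, and the dashed line marks equal responses. Members crowd along both axes, which is where the response of 1 line is small. Beyond the axis limits of 4.5 lie 2 members and 9 other genes.

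The largest positive difference among protein-coding genes with a group mean of at least 5 FPKM was in CASP1. This gene encodes the inflammatory caspase that cleaves pro-interleukin-1 beta. CASP1 was 20.9 and 24.1 FPKM with EV and 31.6 and 31.5 with CTBP2 in MM.1S. It was 1.09 and 0.935 FPKM with EV and 18.8 and 21.5 with CTBP2 in NCI-H929. The gene was thus already on in MM.1S with EV, near 1 FPKM in NCI-H929 with EV, and close to the MM.1S level in both NCI-H929 CTBP2 libraries. Both MM.1S CTBP2 libraries were also above both MM.1S EV libraries, but by less than the 0.5 (log2) asked for a separation. The difference was 2.92 ± 0.21 (log2, standard error), made of a response of 3.39 in NCI-H929 and 0.47 in MM.1S, and it was 2.82 in the 6 libraries.

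CASP1 lies on chromosome 11 between 2 other members, CASP4, an inflammatory caspase that senses lipopolysaccharide in the cytosol, and CARD16, a short CASP1 relative made of the caspase recruitment domain. CARD16 was 13.2 and 12.7 FPKM with EV and 18.6 and 17.6 with CTBP2 in MM.1S, and 0.982 and 1.92 FPKM with EV and 16.7 and 23.0 with CTBP2 in NCI-H929. CASP4 was 28.5 and 26.8 FPKM with EV and 33.3 and 31.5 with CTBP2 in MM.1S, and 8.58 and 10.9 FPKM with EV and 40.3 and 36.5 with CTBP2 in NCI-H929. All 3 genes of the cluster had non-overlapping EV and CTBP2 values in NCI-H929 and, by less, in MM.1S. The differences were 2.64 for CARD16 and 1.66 for CASP4 (2.39 and 1.69 in the 6 libraries). CARD16 and CASP1 share sequence, so their counts may be partly split between them.

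CTSZ, a lysosomal cathepsin, showed the same pattern of a gene that was low in NCI-H929 until CTBP2 was added. It was 24.2 and 19.9 FPKM with EV and 23.9 and 13.8 with CTBP2 in MM.1S. It was 3.27 and 4.06 FPKM with EV and 27.0 and 26.6 with CTBP2 in NCI-H929. In NCI-H929 the groups did not overlap, while in MM.1S the first CTBP2 library lay within the EV range and the second below it. The difference was 2.83 ± 0.34 (2.47 in the 6 libraries). F11R, a tight junction adhesion molecule, was 43.5 and 36.4 FPKM with EV and 57.0 and 50.5 with CTBP2 in MM.1S, and 6.73 and 8.10 FPKM with EV and 51.3 and 51.4 with CTBP2 in NCI-H929, with a difference of 2.22. PRR15, a proline-rich protein, was 8.71 and 10.3 FPKM with EV and 9.99 and 10.4 with CTBP2 in MM.1S and 0.489 and 0.322 FPKM with EV and 4.01 and 8.44 with CTBP2 in NCI-H929, with a difference of 2.20. In each of these 3 genes the NCI-H929 EV libraries were the lowest of all 8.

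A further group was low or listed at 0 in MM.1S under both vectors and appeared in NCI-H929 with CTBP2. CD1A, which presents lipid antigens to T cells and normally marks Langerhans cells and immature thymocytes, was listed at 0 in both MM.1S EV libraries and was 0.437 and 0.183 FPKM with CTBP2 there. In NCI-H929 it was 0.126 and 0.280 FPKM with EV and 13.3 and 7.08 FPKM with CTBP2. Its neighbour CD1D on chromosome 1, the CD1 molecule that natural killer T cells recognise, was listed at 0 in all 4 MM.1S libraries and was 0.568 and 0.536 FPKM with EV and 3.46 and 3.59 with CTBP2 in NCI-H929. The 2 CD1 genes thus differed in the same direction, by 2.78 and 1.54 (log2; 3.05 and 1.52 in the 6 libraries).

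NTF3, the neurotrophin 3 gene, was listed at 0 in the 4 MM.1S libraries and was 0.707 and 0.704 FPKM with EV and 5.89 and 11.97 with CTBP2 in NCI-H929. CALHM3, a calcium homeostasis modulator channel, was at most 0.299 FPKM in MM.1S and was 0.564 and 1.27 FPKM with EV and 8.36 and 10.6 with CTBP2 in NCI-H929. APOBR, an apolipoprotein B receptor of macrophages, was 0.123 and 0.130 FPKM with EV and 0.244 and 0.305 with CTBP2 in MM.1S and 2.16 and 1.43 FPKM with EV and 11.96 and 21.8 with CTBP2 in NCI-H929. In all 3 genes the second NCI-H929 CTBP2 library was the higher of the pair, and the 6-library differences, 2.01, 1.99 and 2.08, were below those of the 8 libraries, 2.47, 2.18 and 2.45. ACTA2, smooth muscle actin, also had its higher value in that library, at 11.4 against 7.68 FPKM in the other NCI-H929 CTBP2 library, 0.527 and 1.22 with EV and at most 0.726 in MM.1S. ASB2, the substrate receptor of a ubiquitin ligase that targets filamins, was 3.03 and 3.58 FPKM with EV and 1.73 and 2.43 with CTBP2 in MM.1S and 57.1 and 49.3 FPKM with EV and 161 and 186 with CTBP2 in NCI-H929, so the line that already had the higher EV level was the one in which it was higher with CTBP2.

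Some leukocyte surface genes among the members were highest in both NCI-H929 CTBP2 libraries. Others, such as CCR2, CD70, TREML2, TRAT1 and CLEC9A, were highest in MM.1S with EV. FCGR2C, an activating Fc gamma receptor, was 0.0722 and 0.0507 FPKM with EV and 0.750 and 0.463 with CTBP2 in MM.1S and 0.120 and 0.155 FPKM with EV and 5.34 and 10.5 with CTBP2 in NCI-H929. It shares most of its sequence with FCGR2A and FCGR2B, so its value is uncertain. LILRB1, an inhibitory receptor for MHC class I, was at most 0.0199 FPKM in MM.1S and was 5.50 and 6.52 FPKM with EV and 19.5 and 14.3 with CTBP2 in NCI-H929, and its neighbour LILRA2 on chromosome 19 was 0.692 and 1.02 FPKM with EV and 3.97 and 2.9998 with CTBP2 in NCI-H929. PLAUR, the urokinase receptor, was 8.38 and 10.3 FPKM with EV and 21.7 and 27.4 with CTBP2 in NCI-H929 against 2.03 and 2.50 FPKM with EV and 1.66 and 1.96 with CTBP2 in MM.1S. HLA-DQB1, an MHC class II beta chain, was at most 0.274 FPKM in MM.1S and was 0.234 and 0.11001 FPKM with EV and 3.13 and 2.94 with CTBP2 in NCI-H929. These genes were a member each by differences of 2.31, 1.33, 1.40, 1.52 and 1.67.

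**Figure D3:**
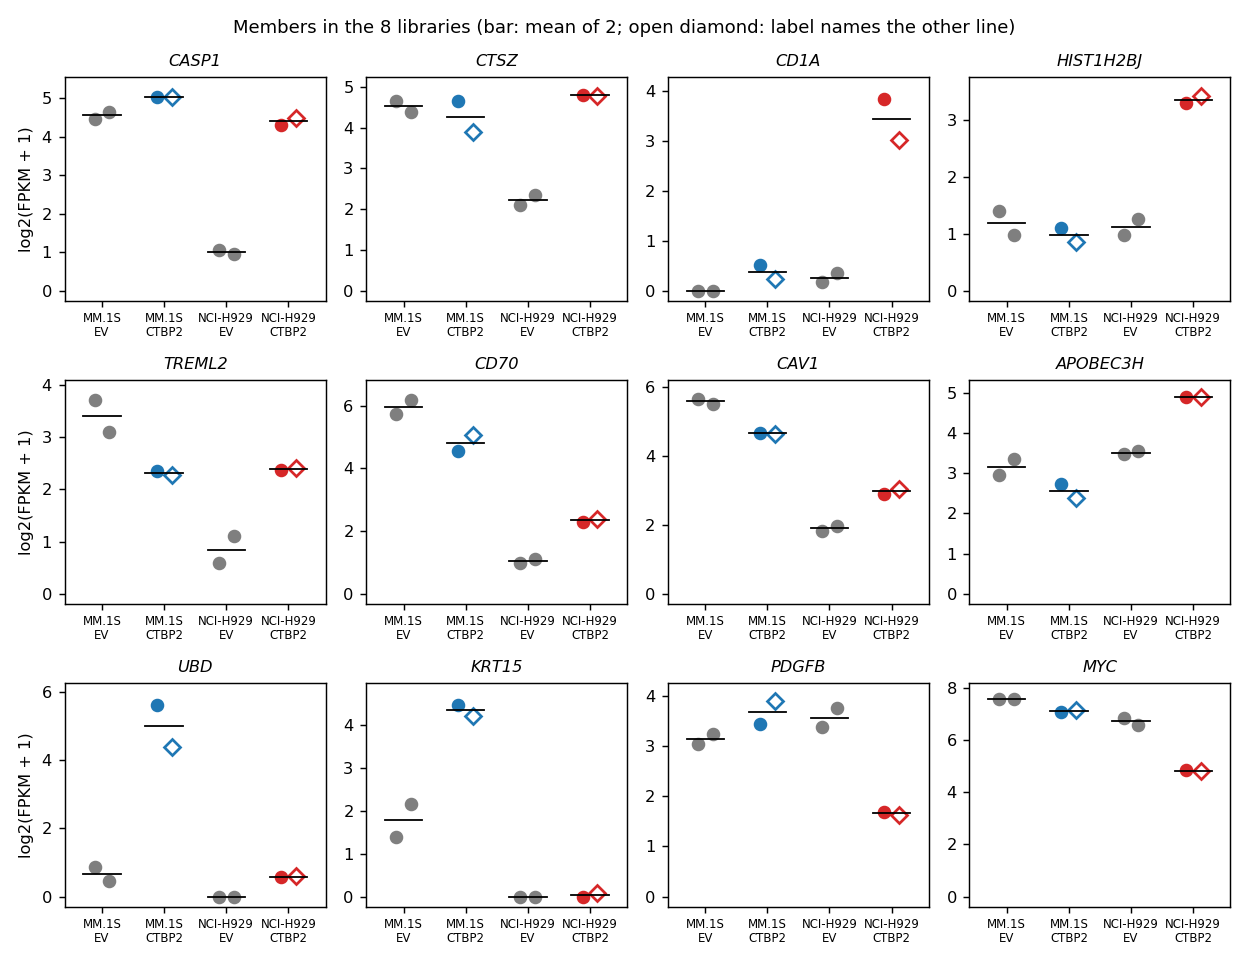
log2(FPKM + 1) of 12 members in the 8 libraries by line and vector; circles are libraries whose label names that line, open diamonds the 2 libraries whose label names the other line, and bars the means of 2. By the 0.5 (log2) rule, CASP1, CTSZ, CD1A and HIST1H2BJ are higher with CTBP2 in NCI-H929 alone. Both MM.1S CTBP2 libraries of CASP1 and CD1A also lie above both EV libraries, by 0.47 and 0.38. TREML2, CD70, CAV1 and APOBEC3H move in opposite directions, UBD and KRT15 are higher mainly in MM.1S, PDGFB moves oppositely, and MYC is lower mainly in NCI-H929.

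Histone genes made up 12 of the 116 members with the higher NCI-H929 response and none of the 42 others. The 12 include HIST2H3A and HIST2H3C, whose values were identical. Histone genes of every kind were not counted over all genes tested, so nothing is read from this count. Replication-dependent histone mRNAs are normally made in S phase and end in a stem-loop in place of a poly(A) tail. The library kit's selection of poly(A) RNA is not given in the sources used here. HIST1H2AM was 1.26 and 0.757 FPKM with EV and 0.854 and 0.643 with CTBP2 in MM.1S and 1.33 and 2.93 FPKM with EV and 16.1 and 16.5 with CTBP2 in NCI-H929. HIST1H2BJ was 1.65 and 0.965 FPKM with EV and 1.16 and 0.819 with CTBP2 in MM.1S and 0.973 and 1.41 FPKM with EV and 8.93 and 9.70 with CTBP2 in NCI-H929. HIST1H2BC was 1.49 and 1.35 FPKM with EV and 3.04 and 1.36 with CTBP2 in MM.1S and 1.65 and 3.07 FPKM with EV and 23.6 and 20.8 with CTBP2 in NCI-H929. In these 3 genes the MM.1S libraries with either vector and the NCI-H929 EV libraries were all at or below 3.07 FPKM, and both NCI-H929 CTBP2 libraries stood well above them.

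The differences were 2.71 for HIST1H2AM, 2.44 for HIST1H2BJ and 2.47 for HIST1H2BC, and 2.602, 2.27 and 2.17 in the 6 libraries. HIST2H2BF (2.49), HIST1H2AI (2.15), HIST1H2AJ (2.09) and HIST1H4E (1.77) were members as well. HIST2H3A and HIST2H3C carried identical values in all 8 libraries, and are not separate evidence. Of the 33 genes tested in a list of replication-dependent histones, 8 were members, all with the higher NCI-H929 response, and the list's median difference was 1.58 against 0.02 over all genes. Within NCI-H929, 32 of the 33 were called higher and none lower. Within MM.1S, 5 were called higher and none lower. The difference was positive in 32 of 33 and, in the 6 libraries, in 31 of 33, with a median of 1.25.

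Promoter sequences are shown for 2 histone members, which were both higher with CTBP2 in NCI-H929 and hold a TATA box core, and after them for 2 interferon-related members. All are the 250 bases before the RefSeq transcription start in GRCh38.p14, written 5′ to 3′ on the strand of the gene, with matches to TATAAA on either strand in capitals for the histone genes. HIST1H2BJ lies at chr6:27132796-27133045 on the minus strand and HIST1H2AJ at chr6:27814778-27815027 on the minus strand.
HIST1H2BJ: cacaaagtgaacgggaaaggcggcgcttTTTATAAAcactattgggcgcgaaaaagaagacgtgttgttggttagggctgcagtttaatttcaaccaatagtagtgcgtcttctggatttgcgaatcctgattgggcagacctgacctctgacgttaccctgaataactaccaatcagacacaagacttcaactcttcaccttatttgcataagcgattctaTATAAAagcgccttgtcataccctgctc
HIST1H2AJ: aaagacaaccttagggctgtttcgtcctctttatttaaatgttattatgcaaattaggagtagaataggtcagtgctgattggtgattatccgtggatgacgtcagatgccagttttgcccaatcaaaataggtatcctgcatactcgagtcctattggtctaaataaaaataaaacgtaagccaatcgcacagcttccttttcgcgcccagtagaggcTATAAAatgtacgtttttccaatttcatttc
The match nearest to the start begins 28 bases before it in HIST1H2BJ and 31 bases before it in HIST1H2AJ. Among the members with a promoter in the RefSeq table (108 of 158), TATAAA was present within 250 bases before and 50 after the start in 19 of the 80 with the higher NCI-H929 response (23.8%, 8 of them histone genes) and in 0 of the 28 with the lower one, against 572 of 10036 promoters of tested genes (5.7%, 28 of them histone genes). The 8 include both HIST2H3A and HIST2H3C.

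Interferon-stimulated genes that were called within a line were called higher, and 1 of the list was a member. Of 43 interferon-stimulated genes tested, 30 were called higher within NCI-H929, 13 within MM.1S and none lower in either. The member was HERC5. The list's median difference was 0.55 (0.36 in the 6 libraries) against 0.02 over all genes, and 35 of 43 differences were positive. OAS1, which makes the second messenger that activates RNase L, was 14.9 and 12.2 FPKM with EV and 25.3 and 17.7 with CTBP2 in MM.1S and 3.78 and 7.87 FPKM with EV and 37.6 and 36.0 with CTBP2 in NCI-H929. Its difference of 1.92 ± 0.41 missed the threshold (limma adjusted p = 0.072). IFIT3 and OASL were uneven within NCI-H929, at 26.2 and 6.33 FPKM and 16.2 and 2.42 FPKM in its 2 CTBP2 libraries, and had adjusted p of 0.34 and 0.38 (limma).

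HERC5, the ligase that attaches ISG15 to proteins, went in opposite directions, though limma did not call it within MM.1S (adjusted p = 0.094). It was 10.4 and 10.6 FPKM with EV and 6.52 and 7.72 with CTBP2 in MM.1S. It was 2.91 and 3.50 FPKM with EV and 8.67 and 7.30 with CTBP2 in NCI-H929. The EV and CTBP2 values did not overlap in either line, and with CTBP2 the lines met at the same level: the gap between them (NCI-H929 minus MM.1S) was -1.45 with EV and 0.15 with CTBP2. RTP4, an interferon-inducible chaperone of receptors that is outside the list, was higher with CTBP2 in both lines but by more in NCI-H929, at 13.7 and 16.6 FPKM with EV and 35.3 and 32.7 with CTBP2 in MM.1S and 0.486 and 0.514 FPKM with EV and 12.6 and 13.8 with CTBP2 in NCI-H929. Its difference was 2.12 ± 0.21 (2.004 in the 6 libraries).

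The promoters of RTP4 (chr3:187368135-187368384, plus strand) and HERC5 (chr4:88456869-88457118, plus strand) hold the core of the interferon response element, GAAANNGAA on either strand, in capitals.
RTP4: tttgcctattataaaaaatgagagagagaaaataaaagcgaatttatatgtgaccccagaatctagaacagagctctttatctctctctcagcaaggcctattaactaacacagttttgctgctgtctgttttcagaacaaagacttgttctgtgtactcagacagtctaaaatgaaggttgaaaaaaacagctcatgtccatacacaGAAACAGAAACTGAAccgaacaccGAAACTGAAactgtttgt
HERC5: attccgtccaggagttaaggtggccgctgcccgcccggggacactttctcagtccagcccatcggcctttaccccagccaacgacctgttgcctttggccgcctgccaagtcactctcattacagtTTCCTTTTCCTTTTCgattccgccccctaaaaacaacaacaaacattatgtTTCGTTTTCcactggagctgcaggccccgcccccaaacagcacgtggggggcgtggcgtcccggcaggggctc
RTP4 has 3 matches, which begin 42, 36 and 18 bases before the start, and HERC5 has 3 on the opposite strand, which begin 124, 118 and 73 bases before it, the first 2 of each gene overlapping. In the window of 250 bases before and 50 after the start, the core was present in 11 of 80 members with the higher NCI-H929 response (13.8%, 5 of them histone genes), in 1 of 28 with the lower one (3.57%) and in 669 of 10036 tested genes (6.67%).

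Other motifs were counted in the same windows on both strands. The AP-1 site TGANTCA was in 11.2% of members with the higher NCI-H929 response, 10.7% of those with the lower one and 4.37% of tested genes, and members with it included HBD, CCR2, PLAUR, CALHM3, SLC7A8 and SP100. The E-box CACGTG, which MYC and MAX bind, was in 5%, 10.7% and 10.6% in the same order. CACCTG, the E-box of the CTBP partners ZEB1 and ZEB2, was in 10%, 25% and 18.4%. The CCACCC box of KLF factors, some of which also recruit CTBP2, was in 38.8%, 32.1% and 37.2%. None of these counts was tested, a match is not a binding site, and TATAAA was the motif with the widest spread between the 2 directions.

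The members APOBEC3H and APOBEC3G encode cytidine deaminases that restrict retroviruses. APOBEC3H was 6.82 and 9.27 FPKM with EV and 5.61 and 4.27 with CTBP2 in MM.1S. It was 10.2 and 10.7 FPKM with EV and 28.9 and 28.8 with CTBP2 in NCI-H929. With EV both NCI-H929 libraries were slightly above MM.1S, and with CTBP2 they were well above every other library. Its neighbour on chromosome 22, APOBEC3G, was 40.0 and 48.5 FPKM with EV and 30.8 and 32.9 with CTBP2 in MM.1S and 14.8 and 17.8 FPKM with EV and 32.7 and 43.2 with CTBP2 in NCI-H929, so that the lines met with CTBP2. The differences were 1.98 and 1.62 (1.82 and 1.47 in the 6 libraries). SP110 and SP100, nuclear body proteins of the same interferon-inducible family, were members by 1.56 and 1.25.

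For the 12 members with opposite directions, the naming rests on the separation of the libraries. Within MM.1S limma did not call HERC5 (adjusted p = 0.094), APOBEC3H (0.085), CHST8 (0.058), LHFPL2 (0.071) or PDGFB (0.14). The 12 included surface and membrane genes that were high in MM.1S and low in NCI-H929 with EV. TREML2, a receptor of the TREM family, was 12.1 and 7.65 FPKM with EV and 4.14 and 3.87 with CTBP2 in MM.1S and 0.501 and 1.15 FPKM with EV and 4.18 and 4.35 with CTBP2 in NCI-H929. The 2 lines, -2.57 apart with EV (log2), were 0.07 apart with CTBP2, and the difference was 2.64 ± 0.34. CD70, the ligand of CD27 on lymphocytes, was 52.1 and 71.4 FPKM with EV and 22.8 and 32.4 with CTBP2 in MM.1S and 0.975 and 1.17 FPKM with EV and 3.87 and 4.26 with CTBP2 in NCI-H929. CD70 stayed far higher in MM.1S with CTBP2, with a gap of -4.91 with EV and -2.48 with CTBP2.

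CAV1 and CAV2, which encode the coat proteins of caveolae and lie side by side on chromosome 7, moved together. CAV1 was 49.4 and 44.7 FPKM with EV and 24.4 and 23.8 with CTBP2 in MM.1S and 2.53 and 2.90 FPKM with EV and 6.45 and 7.17 with CTBP2 in NCI-H929. CAV2 was 18.1 and 18.0 FPKM with EV and 9.45 and 10.5 with CTBP2 in MM.1S and 0.0821 and 0.158 FPKM with EV and 1.09 and 1.28 with CTBP2 in NCI-H929. In both genes the MM.1S CTBP2 libraries were below both EV libraries and the NCI-H929 CTBP2 libraries above both, with differences of 2.01 and 1.76 (1.92 and 1.77 in the 6 libraries). CHST8, a sulfotransferase, was 4.97 and 5.69 FPKM with EV and 2.39 and 3.31 with CTBP2 in MM.1S and 0.872 and 0.514 FPKM with EV and 1.54 and 1.86 with CTBP2 in NCI-H929. FN1, fibronectin, was 3.18 and 2.44 FPKM with EV and 1.16 and 1.22 with CTBP2 in MM.1S and 0.183 and 0.432 FPKM with EV and 0.896 and 1.005 with CTBP2 in NCI-H929. LHFPL2 and LINC00582 completed the 10 whose NCI-H929 response was the higher.

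The other 2 with opposite directions had the lower response in NCI-H929. PDGFB, the B chain of platelet-derived growth factor, was 7.29 and 8.42 FPKM with EV and 9.92 and 14.0 with CTBP2 in MM.1S. It was 9.43 and 12.5 FPKM with EV and 2.22 and 2.10 with CTBP2 in NCI-H929. With EV both NCI-H929 libraries were above both MM.1S libraries, and with CTBP2 they were the lowest of the 8. The difference was -2.44 ± 0.29 (-2.18 in the 6 libraries). DOK3, an adaptor that dampens immune receptor signalling, was 9.26 and 9.15 FPKM with EV and 16.0 and 18.7 with CTBP2 in MM.1S and 1.38 and 1.90 FPKM with EV and 0.444 and 0.409 with CTBP2 in NCI-H929, with a difference of -1.72.

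Members that were lower with CTBP2 in MM.1S alone also counted as a higher NCI-H929 response. HBD, the delta globin gene, was 35.1 and 34.0 FPKM with EV and 5.25 and 7.87 with CTBP2 in MM.1S and 4.65 and 3.41 FPKM with EV and 8.10 and 4.25 with CTBP2 in NCI-H929. The related HBB went from 3.97 and 7.71 FPKM to 1.97 and 2.78 in MM.1S. HEMGN, a haematopoietic nuclear protein, was 19.4 and 17.7 FPKM with EV and 5.06 and 5.75 with CTBP2 in MM.1S and at most 0.578 in NCI-H929. CCR2, the receptor for the chemokine CCL2, was 11.3 and 8.59 FPKM with EV and 3.18 and 1.97 with CTBP2 in MM.1S and at most 0.0954 in NCI-H929. For HEMGN and CCR2 the NCI-H929 libraries were near 0 with either vector, which leaves no room for a lower value there, and the difference was 1.69 or 1.68.

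Other members of this kind were well above 0 in NCI-H929. VIM, the intermediate filament vimentin, was 52.7 and 53.5 FPKM with EV and 16.6 and 22.7 with CTBP2 in MM.1S and 503 and 439 FPKM with EV and 539.8 and 484 with CTBP2 in NCI-H929, so the line with the high level was the one without separation. CST3, the secreted cysteine protease inhibitor cystatin C, was 78.1 and 80.8 FPKM with EV and 26.2 and 26.3 with CTBP2 in MM.1S and 20.0 and 17.7 FPKM with EV and 22.3 and 15.3 with CTBP2 in NCI-H929. MM.1S with CTBP2 thus came near the NCI-H929 level of CST3, and the differences were 1.53 for VIM and 1.54 for CST3 (1.82 and 1.80 in the 6 libraries). DPF3, a subunit of a chromatin remodelling complex, was 9.32 and 9.74 FPKM with EV and 2.998 and 3.16 with CTBP2 in MM.1S and 6.54 and 7.98 FPKM with EV and 6.85 and 6.51 with CTBP2 in NCI-H929.

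Members that were higher in both lines by unequal amounts were mostly steeper in NCI-H929. PPIC, a secretory pathway prolyl isomerase, was 3.62 and 4.87 FPKM with EV and 14.0 and 16.0 with CTBP2 in MM.1S and 1.599 and 1.62 FPKM with EV and 18.5 and 19.1 with CTBP2 in NCI-H929. JUP, the junction protein plakoglobin, was 16.0 and 15.7 FPKM with EV and 27.1 and 28.2 with CTBP2 in MM.1S and 1.43 and 1.18 FPKM with EV and 7.604 and 9.01 with CTBP2 in NCI-H929. In both genes the EV level was lower in NCI-H929, and the differences were 1.30 and 1.25. PROS1, which encodes the anticoagulant protein S, was 0.114 and 0.0689 FPKM with EV and 1.01 and 0.486 with CTBP2 in MM.1S and 0.280 and 0.316 FPKM with EV and 5.79 and 7.11 with CTBP2 in NCI-H929.

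UBD, the ubiquitin-like modifier FAT10 that interferon and tumour necrosis factor induce, had the lowest difference, and the largest in size, among the named members. It was 0.821 and 0.361 FPKM with EV and 48.6 and 19.9 with CTBP2 in MM.1S. It was listed at 0 in both NCI-H929 EV libraries and was 0.485 and 0.511 FPKM with CTBP2 there. Both MM.1S CTBP2 libraries were thus far above all others, though they differed from each other by more than 2-fold. The difference was -3.77 ± 0.49, made of responses of 0.58 in NCI-H929 and 4.36 in MM.1S, and it was -4.41 in the 6 libraries.

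KRT15, a basal epithelial keratin, was 1.64 and 3.46 FPKM with EV and 21.3 and 17.5 with CTBP2 in MM.1S, and was at most 0.0555 FPKM in NCI-H929. SCNN1G, a subunit of the epithelial sodium channel, was 14.1 and 23.2 FPKM with EV and 72.8 and 85.1 with CTBP2 in MM.1S and at most 0.195 FPKM in NCI-H929. CHRNA1, a muscle acetylcholine receptor subunit, was 1.17 and 2.03 FPKM with EV and 16.5 and 15.5 with CTBP2 in MM.1S and 0.0269 and 0 FPKM with EV and 0.626 and 1.25 with CTBP2 in NCI-H929. These 3 were higher with CTBP2 in MM.1S by 2.57, 2.06 and 2.73 (log2), and their differences between lines were -2.53, -1.87 and -1.81.

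Others of this kind were FRMD3 (-2.001), C10orf128 (-1.75) and its chromosome 10 neighbour ARHGAP22 (-1.36). PNMA1, a paraneoplastic antigen, was 0.271 and 0.238 FPKM with EV and 3.01 and 2.115 with CTBP2 in MM.1S and 17.8 and 14.6 FPKM with EV and 15.9 and 14.2 with CTBP2 in NCI-H929, so that the line with the low EV level was the one that was higher with CTBP2. SLC2A3, the glucose transporter GLUT3, was 2.46 and 2.29 FPKM with EV and 6.59 and 6.29 with CTBP2 in MM.1S and at most 0.0246 FPKM in NCI-H929. It was the 1 member of 34 glycolysis and hypoxia genes.

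MYC, the growth transcription factor, was the most abundant protein-coding member, by FPKM, that was lower with CTBP2 in NCI-H929 alone. It was 189.9 and 188 FPKM with EV and 134 and 139 with CTBP2 in MM.1S. It was 115 and 92.9 FPKM with EV and 27.8 and 26.8 with CTBP2 in NCI-H929. The MM.1S CTBP2 libraries were also below both EV libraries, by -0.47 (log2), which is inside the 0.5 asked for a separation, while the NCI-H929 response was -1.88. The difference was -1.41 ± 0.23 (-1.36 in the 6 libraries).

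Of 56 MYC target and ribosome biogenesis genes tested, MYC itself was the 1 member. Within NCI-H929 46 were called lower and 1 higher, and within MM.1S 3 were called lower and 1 higher. The list's median difference was -0.60, and 54 of 56 were negative, but in the 6 libraries the median was -0.30 with 41 of 56 negative. POLR3G, a subunit of RNA polymerase III, was nearest to the threshold at -1.39 ± 0.28 (limma adjusted p = 0.062). DIMT1, a methyltransferase of small-subunit ribosomal RNA outside the list, was a member, at 25.0 and 27.2 FPKM with EV and 19.7 and 20.2 with CTBP2 in MM.1S and 43.2 and 37.3 FPKM with EV and 13.5 and 14.1 with CTBP2 in NCI-H929.

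SLC29A1, the nucleoside transporter ENT1, was 84.2 and 94.7 FPKM with EV and 63.5 and 76.1 with CTBP2 in MM.1S and 59.0 and 50.9 FPKM with EV and 15.3 and 9.34 with CTBP2 in NCI-H929. CTXN1, cortexin, was at most 0.871 FPKM in MM.1S and was 14.0 and 11.6 FPKM with EV and 2.64 and 1.66 with CTBP2 in NCI-H929. SPNS2, which exports sphingosine-1-phosphate from cells, was 10.9 and 15.6 FPKM with EV and 12.8 and 17.8 with CTBP2 in MM.1S and 13.8 and 12.3 FPKM with EV and 4.15 and 4.46 with CTBP2 in NCI-H929. All 3 were lower in both NCI-H929 CTBP2 libraries than in either EV library, beside MM.1S responses of -0.36, -0.11 and 0.20 (log2), with differences of -1.75, -2.03 and -1.60. SPNS2 was also the last gene inside the threshold with SP100, at adjusted p of 0.0498 for SP100 and 0.04996 for SPNS2, and TSPAN9 and RARRES3 were the first outside it, at 0.0502 and 0.0515.

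IRF4, which encodes a master regulator of plasma cells, was called lower with CTBP2 within each line and was not a member. It was 154 and 143 FPKM with EV and 59.7 and 63.2 with CTBP2 in MM.1S and 132 and 160.3 FPKM with EV and 66.8 and 69.6 with CTBP2 in NCI-H929. The responses were -1.08 in NCI-H929 and -1.26 in MM.1S, and the difference was 0.18 ± 0.23 (limma adjusted p = 0.8), which leaves room for a small difference in either direction. IKZF1, IKZF3, PRDM1 and XBP1 had differences of 0.62, -0.00, 0.27 and 0.25, none of them called (limma adjusted p from 0.352 to 0.999).

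Cell cycle lists gave no members, and their medians moved to either side of 0 with the libraries used. The median difference was -0.03 over 47 G1/S genes and -0.07 over 41 G2/M genes with 8 libraries, and 0.73 and 0.63 with 6. By label, the G1/S median was 0.45 without MM.1S CTBP2 replicate 2 and -0.49 without NCI-H929 CTBP2 replicate 1, the ends of its range with 1 library left out. The G2/M median was 0.48 and -0.64 without the same libraries. Within NCI-H929 28 of the 47 G1/S genes were called lower, and within MM.1S 5. Cytoplasmic ribosomal protein genes had a median of -0.38 over 75 genes with 8 libraries and 0.09 with 6, and 0.14 and -0.94 without those 2 libraries in turn.

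Of 22 MHC class II and B cell genes, HLA-DQB1 was the 1 member, and HLA-DRA and HLA-DPA1 had the same sign. In the whole list 13 differences were positive and 9 negative. Its median was 0.38, and 0.05 with quantile normalization. HLA-DRA was 188 and 107 FPKM with EV and 104 and 63.0 with CTBP2 in MM.1S and 0.674 and 0.388 FPKM with EV and 2.55 and 4.93 with CTBP2 in NCI-H929, with a difference of 2.39 ± 0.50 (limma adjusted p = 0.068). Of 23 epithelial junction genes, 3 were members with the higher NCI-H929 response, VIM, FN1 and JUP, of which VIM and FN1 are mesenchymal genes. Of 28 leukocyte homing and adhesion genes, CCR2 was the 1 member. CXCR3, the receptor for interferon-induced chemokines, was 24.5 and 23.7 FPKM with EV and 20.8 and 25.6 with CTBP2 in MM.1S and 6.14 and 10.1 FPKM with EV and 23.9 and 24.8 with CTBP2 in NCI-H929, with a difference of 1.57 ± 0.30 (limma adjusted p = 0.054). The 15 translocation and MAF target genes, 15 D cyclin and CDK inhibitor genes, 26 plasma cell genes, 31 p53 targets, 24 NF-kB genes, 39 ATF4 genes and 27 CtBP corepressor partners held no member, and the ERK list of 28 held MYC alone.

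**Figure D4:**
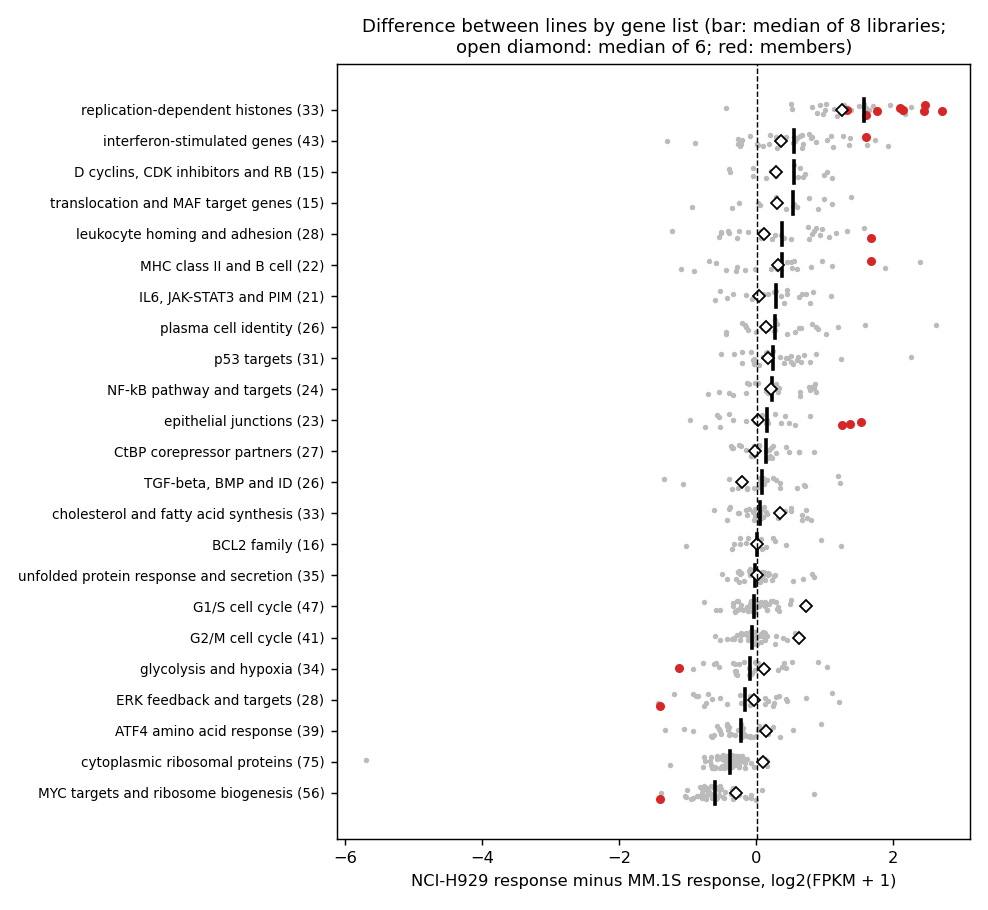
Difference between lines (NCI-H929 response minus MM.1S response, log2(FPKM + 1), x axis) for each gene of 23 lists (y axis, genes tested in brackets); grey points are genes, red points members, black bars list medians over 8 libraries, open diamonds medians over 6, and the dashed line the median of all genes. Histones stand at 1.58 (1.25 with 6 libraries), the MYC target list at -0.60 (-0.30), and the cell cycle diamonds stand apart from their bars.

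Seen as the distance between the lines, CTBP2 brought the lines closer for 56 members and farther apart for 102. Of the 116 with the higher NCI-H929 response 44 came closer and 72 moved apart, and of the 42 others 12 came closer and 30 moved apart. CASP1 went from a gap of -3.54 with EV to -0.62 with CTBP2 (log2, NCI-H929 minus MM.1S), and F11R from -2.28 to -0.06. ASB2 went from 3.65 to 5.83, and SCNN1G from -4.20 to -6.08. These gaps are made of the same values as the rule and are a description, and the same counts over all genes were not made.

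**Figure D5:**
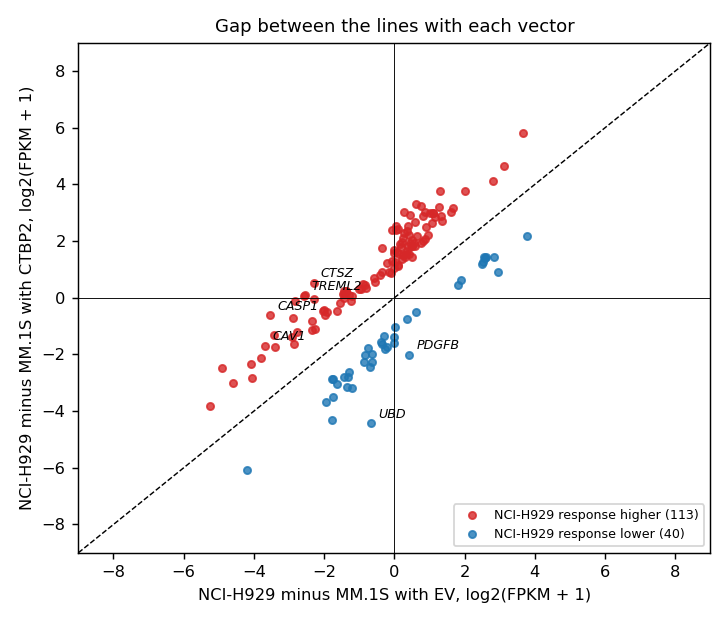
Gap between the lines (NCI-H929 minus MM.1S, log2(FPKM + 1)) with EV (x axis) and with CTBP2 (y axis) for the members other than 5 small RNA genes; red points have the higher and blue points the lower NCI-H929 response, and the dashed line marks an unchanged gap. Of the red points to the left, CASP1 (-0.62), CTSZ (0.53) and TREML2 (0.07) end within 1 of 0 with CTBP2 while CD70 (-2.48) and CAV1 (-1.69) do not, and the blue points UBD and PDGFB end at -4.43 and -2.02.

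Some members lay next to each other. In RefSeq gene order along the genes tested, 23 members lay in 11 runs of adjacent members, and 10 of the 11 runs went in 1 direction. As 116 of the 158 members had the higher NCI-H929 response, unrelated members would often share a direction too. The same share over all genes was not counted, so nothing is read from these runs. Besides those named, LINC01353 and LINC01136 on chromosome 1 and the histone pairs HIST1H2AJ with HIST1H4J and HIST1H3J with HIST1H2AM on chromosome 6 were such runs. The exception was PCDHGA4 and PCDHGC3 on chromosome 5, protocadherins that share exons, with differences of 1.32 and -1.43.

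The 5 small RNA genes among the members were listed at 0 in several libraries. MIR142, whose microRNA is specific to blood cells, was 3364 and 1368 FPKM in the NCI-H929 EV libraries and listed at 0 in the other 6. MIR663A was 989 and 1169 FPKM with EV and 0 and 0 with CTBP2 in MM.1S and 5365 and 3690.0 FPKM with EV and 663 and 2835 with CTBP2 in NCI-H929. SNORA68, SNORA7B and SNORA10, guides of ribosomal RNA modification, were each above 0 in 2 libraries only, at 16.0 and 17.4 FPKM in MM.1S EV, 7.17 and 9.26 in NCI-H929 CTBP2 and 26.1 and 14.8 in MM.1S CTBP2. Their length makes FPKM large for few fragments, so no fold is given. Of all 158 members, 50 had no group mean of 5 FPKM and 20 had clone-style names such as LOC or LINC numbers.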

How the data were processed

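RNA-seq of total RNA from 8 libraries (MM.1S and NCI-H929, EV or CTBP2 vector, 72 hours, 2 per group) was used as the authors' deposited FPKM table, 1 row per gene. The alignment program STAR (2.6.0b-1) and read counter HTSeq (0.9.1), beside DESeq2 (2.11.40.2), Trimmomatic (0.36.5) and FastQC (0.11.7), are listed in the submitters' processing notes, as is build GRCh37 (hg19). Which tool and annotation gave the deposited FPKM values is not given in the sources used here. Counts were not used here, so limma 3.58.1 in R 4.3.3 was run on log2(FPKM + 1) keeping genes that reached 1 FPKM in 2 or more libraries, with 1 mean per line and vector, a mean-variance trend and Benjamini-Hochberg adjustment over all genes tested. This scale understates the change of low genes. The line of each library was set by expression, since 2 labels went against it. With 2 libraries a group, p-values measure the spread between these libraries, which may be technical.

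Replicate numbers were not treated as pairs. The method was tested on simulated libraries with independent spread and no label conflict. That run is no check on the libraries described here.

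By signed difference, named members were the 12 largest and 12 smallest among those with a group mean of at least 5 FPKM and a standard symbol. Up to 6 more of each pattern and up to 4 genes of each list were then added. Other members are named as neighbours or relatives of these and were picked after their values were seen. Some genes are not reported here. The members, lists and motifs were chosen with earlier results of these data known. Promoters are from RefSeq, build GRCh38.p14.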

Additional observations from a re-analysis of the deposited data

Results flagged for a closer look

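The test of the difference between lines itself picked out 158 genes, 116 with the higher and 42 with the lower NCI-H929 response. Among them, the members whose lines moved in opposite directions included TREML2 (2.64), CD70 (2.43), CAV1 (2.01), APOBEC3H (1.98), CAV2 (1.76), HERC5 (1.60) and CHST8 (1.40), and in the other direction PDGFB (-2.44) and DOK3 (-1.72), all as NCI-H929 response minus MM.1S response on log2(FPKM + 1). Of these, limma did not call the MM.1S change of HERC5, APOBEC3H, CHST8 or PDGFB (adjusted p from 0.058 to 0.14). Groups of 2 are too small for a check of single libraries that stand apart.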

How the results depend on the processing

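With the labels as they stand, each CTBP2 group holds 1 library of each line by expression. The difference is then the EV gap between lines with its sign turned, plus the spread within the CTBP2 pairs. CASP1 had 3.45 beside an EV gap of -3.54, and ASB2 had -3.59 beside 3.65. That 72 of the 158 members kept their sign is thus no check on the CTBP2 difference. Leaving out a CTBP2 library cannot turn a sign, since the rule asks that both agree. The count of 158 became 2 with the labels as they stand, 44 without both conflicting libraries, 67 with a pseudocount of 0.1, 62 with a filter of 5 FPKM, 74 with equal totals, and 6 to 418 when 1 library was left out. It stayed within 1.5 times with no filter (176), median-of-ratios (160), quantile normalization (126), no trend (120) and a minimum difference of 1 (156). Quantile normalization changed the split from 116 and 42 to 72 and 54, and with equal totals the median difference over all genes was 0.145 in place of 0.017. With the replicate number as a block, 60 genes were called for the difference, 412 within MM.1S and 3614 within NCI-H929. The replicate 1 minus replicate 2 values of EV and CTBP2 correlated at 0.435 within MM.1S and 0.452 within NCI-H929, and at -0.275 to 0.027 between lines. The labels name no shared batch, so the block was not the main analysis, and whether the numbers pair libraries within a line cannot be settled with 2 pairs.

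Calls within NCI-H929 (4138) were 7 as labelled, 1929 with 6 libraries and 954 to 5127 with 1 library left out. Calls within MM.1S (688) were 3, 1429 and 16 to 1420, and 384 with no filter, 422 with the filter of 5 FPKM and 370 with equal totals. The cause of these changes was not tested. Some of these fits had fewer libraries or another number of genes, but the as-labelled and equal-totals fits used all 8 libraries and all 12583 genes. As each CTBP2 group by label mixes the lines, the signs that follow are no check on the members. With the labels as they stand the difference changed sign in 24 named members: HIST1H2AM -0.71, HIST2H2BF -0.30, NTF3 -1.23, HIST1H2BC -0.74, APOBR -1.67, HIST1H2BJ -0.11, FCGR2C -0.66, CALHM3 -1.05, ASB2 -3.59, HIST1H2AI -0.84, ACTA2 -0.93, APOBEC3H -0.52, PROS1 -0.60, HIST1H4E -0.30, SPNS2 0.18, DOK3 2.08, SLC29A1 1.15, C10orf128 1.64, CHRNA1 1.062, SCNN1G 4.30, FRMD3 1.22, KRT15 1.60, UBD 0.0198, MYC 0.92. List medians near 0 (cell cycle, ERK, secretion, glycolysis, BCL2, epithelial and TGF-beta genes) changed sign with the scaling, and the histone, interferon and MYC target lists did not. Depth is an estimate, so no fragment count stands behind single values.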
